A study of Homo sapiens with 97 samples.

Results

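The 10 transcripts described here encode folding proteins of the endoplasmic reticulum (ER): HSPA5, HYOU1, HSP90B1, CANX, CALR, P4HB, PDIA3, PDIA4, PDIA6 and CALU. They were chosen by name as ER chaperones and isomerases, with earlier results of these data known. Joined by Ensembl identifier, they are 10 of the 60675 identifiers in the count tables. All 10 passed the filter on low counts in every fit, and their smallest count in any library was 129. The counts come from HEK293T, a human embryonic kidney line, stably expressing APEX2, an engineered peroxidase, fused to a targeting sequence. Given biotin-phenol and then hydrogen peroxide for 1 min, APEX2 tags nearby RNA with biotin, and the tagged RNA is enriched and sequenced (APEX-seq). Such libraries are called labelled here. Unlabelled libraries come from cells with the same construct and biotin-phenol but no peroxide.

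Untreated cells carried APEX2 at the ER membrane (ERM), the outer mitochondrial membrane (OMM), in the cytosol (NES), the ER lumen (KDEL), the mitochondrial matrix (MITO, also sequenced as total RNA), the nucleus (NLS), at the nuclear pore (NucPore), the lamina (LMA) or in the nucleolus (NIK). OMM and NES cells were also given cycloheximide, puromycin or CCCP, each drug with unlabelled libraries of its own. In nocodazole, OMM and NES cells were labelled at 3, 6, 9 and 30 min and 2 h, with unlabelled libraries at 3 and 30 min. Nuclear and cytosol fractions were sequenced without labelling. Each group has 2 libraries, which the series text calls biological replicates. The labels do not say whether a line is 1 clone or whether replicates are separate cultures, so p-values measure only the spread between these libraries.

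Libraries of the 9 constructs held 9330259 to 76714068 counts, those of the drugs 22749527 to 55763066, nocodazole libraries 15473060 to 33966883, MITO total RNA 2835969 to 7883579 and the fractions 34961110 to 44973261. In 17 of 96 libraries more than 2% of the well-expressed genes (a mean of at least 5 CPM, normalised counts per 1000000) had no count, up to 16.3%. Among markers of this line, VIM had a median of 675 CPM over the 18 unlabelled libraries of the 9 constructs, LIN28B 92.2, NEFM 65.3 and KRT18 49.5, while KRT8 (9.51) and PAX2 (1.33) were low. Of markers of other cell types, CD3E (T cells) was at 0 in all 18, and PTPRC (leukocytes), ALB (liver) and PECAM1 (endothelium) had medians of 0 and highest values of 5.73, 3.85 and 0.0361 CPM. COL1A1 (fibroblasts) had a median of 10.7 CPM.

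Secretory proteins are recognised while still on the ribosome. A hydrophobic signal sequence at the start of the chain binds the signal recognition particle, which docks ribosome, chain and messenger RNA at the translocon of the ER membrane. In the lumen the chain meets the Hsp70 chaperone HSPA5 (BiP) and its large relative HYOU1, which helps HSPA5 exchange its nucleotide, and the Hsp90 chaperone HSP90B1 (GRP94). The lectin chaperones CANX, anchored in the membrane, and CALR, soluble, hold glycoproteins by their trimmed sugars. P4HB, PDIA3, PDIA4 and PDIA6 form and rearrange disulfide bonds. PDIA3 works with the lectin chaperones, and P4HB is also a subunit of collagen prolyl hydroxylase. CALU (calumenin) binds calcium in the secretory pathway.

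In GRCh38 with GENCODE 29 annotation, HSPA5 (ENSG00000044574) spans chromosome 9 from 125234853 to 125241330, and HYOU1 (ENSG00000149428) chromosome 11 from 119044189 to 119057202. HSP90B1 (ENSG00000166598) spans chromosome 12 from 103930107 to 103953645. CANX (ENSG00000127022) spans chromosome 5 from 179678628 to 179730925, and CALR (ENSG00000179218) chromosome 19 from 12938578 to 12944489. P4HB (ENSG00000185624) spans chromosome 17 from 81843159 to 81860694, and PDIA3 (ENSG00000167004) chromosome 15 from 43746392 to 43773279. PDIA4 (ENSG00000155660) spans chromosome 7 from 149003062 to 149028641, and PDIA6 (ENSG00000143870) chromosome 2 from 10783391 to 10837977. CALU (ENSG00000128595) spans chromosome 7 from 128739292 to 128771807. All are protein-coding, and counts were summed per gene.

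What the proteins share is the signal sequence, encoded at the start of the coding sequence. The first 25 codons are shown for CANX, CALU and HYOU1, which had the highest ERM values, for HSPA5 and HSP90B1, whose ERM values were not called, for PDIA4, which has the longest hydrophobic run, and for HSPA8, the cytosolic relative of HSPA5. Codons with T as the middle base, which all encode hydrophobic residues, are in capitals. The sequences are those of the GENCODE 29 transcripts on GRCh38, read 5′ to 3′.
CANX: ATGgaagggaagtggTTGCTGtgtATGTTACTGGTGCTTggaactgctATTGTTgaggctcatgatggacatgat
CALU: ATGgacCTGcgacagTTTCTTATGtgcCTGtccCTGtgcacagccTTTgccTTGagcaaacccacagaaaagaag
HYOU1: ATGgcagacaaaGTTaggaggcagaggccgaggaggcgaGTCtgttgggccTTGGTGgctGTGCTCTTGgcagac
HSPA5: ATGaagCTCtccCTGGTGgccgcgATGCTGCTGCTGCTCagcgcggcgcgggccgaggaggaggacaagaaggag
HSP90B1: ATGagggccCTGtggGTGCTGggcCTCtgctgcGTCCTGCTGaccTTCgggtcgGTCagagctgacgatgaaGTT
PDIA4: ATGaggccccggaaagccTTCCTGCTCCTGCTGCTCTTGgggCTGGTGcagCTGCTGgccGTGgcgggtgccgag
HSPA8: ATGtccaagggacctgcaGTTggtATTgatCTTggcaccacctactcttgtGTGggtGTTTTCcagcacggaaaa

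The longest unbroken run of such codons is 7 in PDIA4, 5 in HSPA5 and CANX, and 2 in HSPA8. From codon 2 to codon 25 the 10 members have 7 to 12 of them, with a median of 9, where the median of 19479 coding genes is 6. CALR and PDIA4 have the most, 12, a number that 4.71% of coding genes reach. HYOU1 and P4HB have the fewest, 7. HYOU1 begins with a stretch of charged codons before its hydrophobic ones.

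The end of the coding sequence carries the signal that returns luminal proteins to the ER, which the KDEL construct is named after. The last 6 codons are shown for 3 soluble members and for the membrane protein CANX, with the 4 codons before the stop in capitals. HSPA5, HSP90B1 and CALR encode the same 4 residues there in different codons.
HSPA5: gaaAAAGATGAGTTGtag
HSP90B1: gaaAAAGATGAATTGtaa
CALR: gccAAGGACGAGCTGtag
CANX: aagCCACGAAGAGAGtga

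In untreated cells CANX, CALU and HYOU1 were 4.29, 4.27 and 3.52 times as high in ERM labelled as in ERM unlabelled libraries, and P4HB and CALR 1.64 and 1.44 times. At OMM 8 of the 10 were higher. At NES HSPA5, HSP90B1, PDIA3 and PDIA6 were 1.82 to 2.08 times lower. No member was called at KDEL. These ratios compare labelled with unlabelled libraries of the same construct and do not measure the amount per cell. In these bulk libraries a difference in some cells and one in all cells cannot be told apart.

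**Figure D1:**
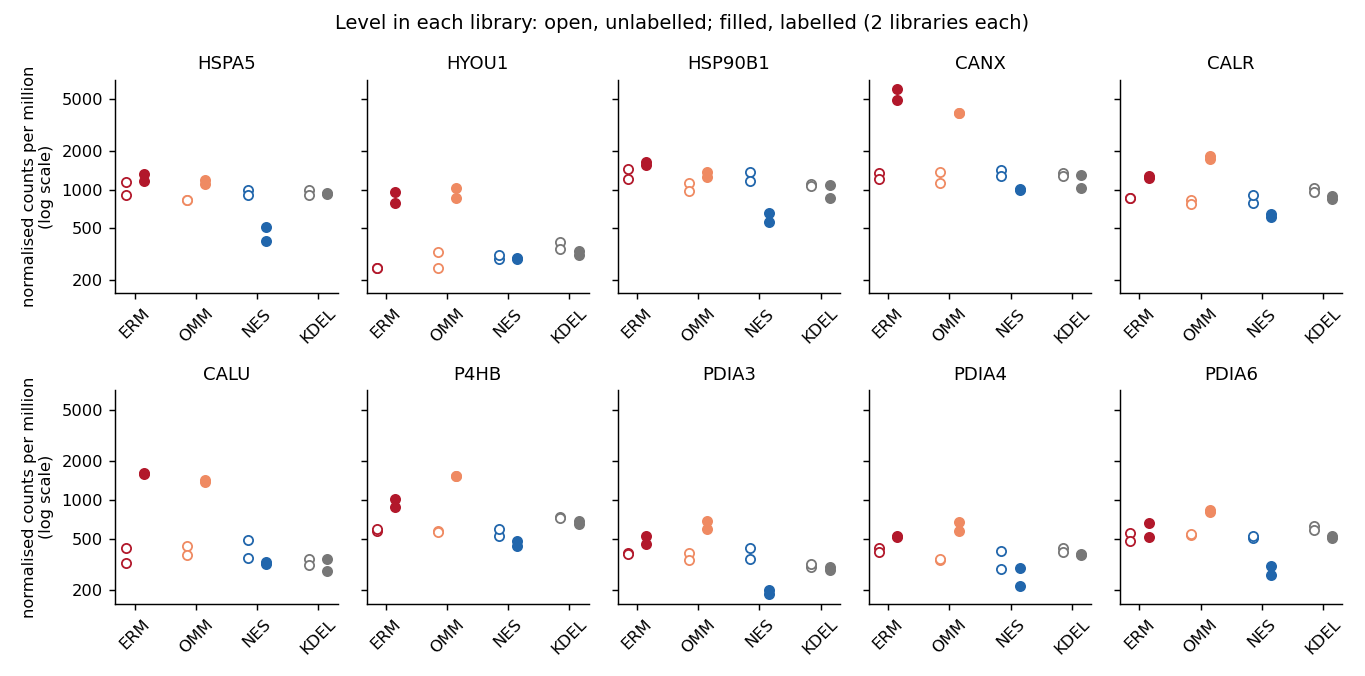
CPM (log axis) of each transcript in the ERM, OMM, NES and KDEL libraries, open for unlabelled and filled for labelled, 2 libraries each. CANX, CALU and HYOU1 stand far above their unlabelled libraries at ERM and OMM (CANX 5966 and 4936 CPM against 1347 and 1197 at ERM), and HSPA5, HSP90B1, PDIA3 and PDIA6 lie below theirs at NES.

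Among the Hsp70 chaperones, HSPA5 had 1158 and 1311 CPM labelled against 1135 and 913 unlabelled at ERM. It had 1189 and 1104 against 822 and 825 at OMM, and 509 and 401 against 991 and 900 at NES. Labelled libraries were above unlabelled ones at both membranes, narrowly at ERM, and well below them at NES, without overlap. The log2 fold change was 0.27 ± 0.19 (SE; edgeR quasi-likelihood test, adjusted p = 0.391) at ERM, 0.48 ± 0.19 (adjusted p = 0.178) at OMM and -1.05 ± 0.19 (adjusted p = 0.000519) at NES.

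HYOU1 had 784 and 957 CPM labelled against 247 and 248 unlabelled at ERM, and 858 and 1033 against 326 and 246 at OMM. At NES it had 293 and 287 against 292 and 310. Labelled libraries were high at both membranes, and at NES the groups overlapped. The log2 fold change was 1.81 ± 0.20 (edgeR adjusted p = 1.97e-08) at ERM, 1.73 ± 0.20 (adjusted p = 2.68e-07) at OMM and -0.05 ± 0.19 (adjusted p = 0.997) at NES.

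The Hsp90 chaperone HSP90B1 had 1560 and 1646 CPM labelled against 1433 and 1202 unlabelled at ERM, and 1377 and 1259 against 1130 and 966 at OMM. At NES it had 654 and 559 against 1365 and 1159. The order was that of HSPA5: just above at the membranes, far below at NES, with no overlap. The log2 fold change was 0.28 ± 0.15 (edgeR adjusted p = 0.257) at ERM, 0.33 ± 0.15 (adjusted p = 0.31) at OMM and -1.06 ± 0.15 (adjusted p = 5.89e-05) at NES.

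The lectin CANX had 5966 and 4936 CPM labelled against 1347 and 1197 unlabelled at ERM, 3939 and 3943 against 1360 and 1132 at OMM, and 983 and 1014 against 1427 and 1283 at NES. Labelled libraries were high at both membranes and low at NES, with no overlap. The log2 fold change was 2.10 ± 0.17 (edgeR adjusted p = 5e-11) at ERM, 1.66 ± 0.17 (adjusted p = 2.95e-08) at OMM and -0.44 ± 0.16 (adjusted p = 0.158, not called) at NES. Its soluble relative CALR had 1262 and 1221 CPM against 862 and 859 at ERM and 1823 and 1720 against 836 and 772 at OMM. CALR thus was higher at both, with log2 fold changes of 0.53 ± 0.18 (edgeR adjusted p = 0.0431) and 1.14 ± 0.18 (adjusted p = 5.2e-05).

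Of the disulfide isomerases, P4HB had 880 and 1030 CPM labelled against 575 and 594 unlabelled at ERM, and 1530 and 1538 against 579 and 569 at OMM. Both labelled groups stood clear of the unlabelled ones, at 0.71 ± 0.16 (edgeR adjusted p = 0.00149) and 1.42 ± 0.16 (adjusted p = 2.6e-07). PDIA3, PDIA4 and PDIA6 were called at OMM (0.82 ± 0.19, 0.85 ± 0.19 and 0.62 ± 0.16) and not at ERM (0.37, 0.35 and 0.19). The ERM groups of PDIA6 overlapped, with 669 and 520 CPM labelled and 560 and 483 unlabelled. At NES PDIA3 had 201 and 187 CPM against 427 and 353, and PDIA6 307 and 262 against 507 and 526, both well below. Their log2 fold changes there were -1.01 ± 0.19 and -0.86 ± 0.16 (edgeR adjusted p = 0.00105 and 0.000981).

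CALU had 1603 and 1624 CPM labelled against 429 and 327 unlabelled at ERM, and 1423 and 1386 against 438 and 375 at OMM. At NES it had 331 and 320 against 489 and 355. Both membranes were high, and no groups overlapped. The log2 fold change was 2.09 ± 0.19 (edgeR adjusted p = 9.98e-10) at ERM, 1.79 ± 0.19 (adjusted p = 1.02e-07) at OMM and -0.37 ± 0.19 (adjusted p = 0.432) at NES.

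At ERM 5 of 10 members were called higher, where 5.26% of the 22680 genes tested were higher, and the members' median log2 fold change was 0.45 against 0.00 over all genes. At OMM 8 of 10 were called higher (3.0% of genes), with medians of 0.99 and 0.06. At NES 4 of 10 were called lower (2.5% of genes), with medians of -0.44 and 0.18. Without the second OMM unlabelled library 5 were called at OMM, and without the second NES labelled library 1 at NES. With the libraries of each comparison fitted alone, 5 were called at OMM and 0 at NES.

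At KDEL edgeR called 0 of 10 members and 0.0% of all genes. Unadjusted, 0 members and 46 of 22680 genes had an edgeR p under 0.05, and DESeq2 called 0 members and 0 genes. The 10 values ran from -0.22 to -0.02. HSPA5 had 925 and 943 CPM labelled against 988 and 911 unlabelled there, and CANX 1031 and 1293 against 1335 and 1274, overlapping in both.

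**Figure D2:**
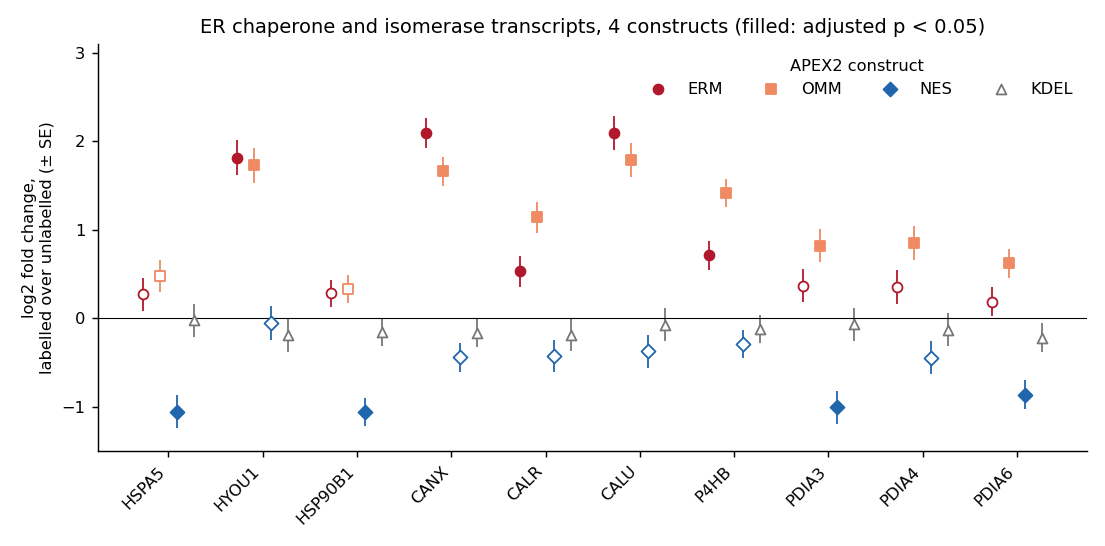
Log2 fold change of labelled over unlabelled libraries with its standard error for each transcript at ERM, OMM, NES and KDEL, filled where the edgeR adjusted p is under 0.05. ERM and OMM values lie above 0, with CANX, CALU and HYOU1 at 1.81 to 2.10 at ERM, NES values lie below it, and no KDEL value is filled.

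The unlabelled libraries chosen bear on the ERM count. HSPA5 had 1135 and 913 CPM in the ERM unlabelled libraries, where the median of the 18 unlabelled libraries of all constructs was 796. With all 18 as controls 9 of 10 were called at ERM, HSPA5 at 0.65 (edgeR adjusted p = 0.000264) and HSP90B1 at 0.68 (adjusted p = 6.38e-06), and PDIA6 was not (0.29, adjusted p = 0.0772). Calls over all genes rose as well, to 5025 of 22680 in either direction from 2917 with the ERM controls. The authors' deposited table gives 0.63 for HSPA5 and 0.28 for PDIA6 at ERM. Both lie nearer to the values with all 18 controls than to those with the ERM controls. Which unlabelled libraries the authors used was not worked out. The first ERM labelled library lacked 5.02% of the well-expressed genes, and its part in the result was not tested beyond leaving it out. Whichever of the 4 ERM libraries was left out, 4 members were called.

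Set against each other, the ERM contrast exceeded the NES contrast for 9 of 10 (2.15% of genes), from 0.95 ± 0.25 in CALR to 2.54 ± 0.23 in CANX. PDIA4 (0.80 ± 0.27, edgeR adjusted p = 0.0983) was not called. The members' median was 1.33 against -0.45 over all genes. The OMM contrast exceeded the NES contrast for 10 of 10 (1.58% of genes), from 1.29 ± 0.27 in PDIA4 to 2.16 ± 0.27 in CALU. Here the medians were 1.64 for the members and 0.00 for all genes. HSPA5 (1.53 ± 0.26, edgeR adjusted p = 0.000458) and HSP90B1 (1.39 ± 0.22, adjusted p = 0.000135), not called at either membrane alone, were called in both differences. Both differences use the same NES libraries. Between ERM and OMM edgeR called 0 of 10 (1.78% of genes in either direction). DESeq2 called 1, and 2 had an unadjusted p under 0.05 (3093 of 22680 genes). The approximate 95% intervals were -0.01 to 0.89 for CANX (0.44) and -1.15 to -0.27 for P4HB (-0.71), so likeness of the 2 membranes is not shown.

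Together the 10 transcripts made up 1.47 to 1.56% of all counts in the ERM labelled libraries and 1.38 to 1.41% in the OMM ones. They made up 0.470 to 0.515% at NES and 0.641 to 0.701% at KDEL. Unlabelled libraries held 0.694 to 0.747% (ERM), 0.621 to 0.699% (OMM), 0.702 to 0.714% (NES) and 0.710 to 0.750% (KDEL). The labelled share was above its unlabelled share at ERM and OMM and below it at NES and KDEL.

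At the nuclear constructs the members were called lower or not at all. At NLS 6 of 10 were lower (2.42% of genes): HSPA5, CANX, CALR, PDIA3, PDIA6 and P4HB, from -0.87 in CALR to -0.64 in P4HB. At LMA CALR (-0.98 ± 0.18), P4HB (-0.75 ± 0.16) and PDIA6 (-0.56 ± 0.16) were lower (4.0% of genes), and at NIK CALR (-0.71 ± 0.18) and PDIA6 (-0.62 ± 0.16; 3.96%). CALR and PDIA6 were called at all 3, and HSP90B1, PDIA4, CALU and HYOU1 at none of them with each construct's own controls. With all 18 unlabelled libraries as controls 9 were lower at NLS, 10 at LMA and 3 at NucPore, and at NIK 5 were lower and CANX was higher. The share of all genes called with these controls is not given for these constructs. At OMM and NES, calls over all genes rose with them to 3006 from 1131 and to 1637 from 880. The members made up 0.479 to 0.482% of counts in the LMA unlabelled libraries and 0.582 to 0.750% in the others of the 18. The NLS count was 1 without the second labelled library and 2 without either unlabelled one. The LMA count was 1 without the first labelled library, and the NIK count 0 without the first unlabelled one and 1 without the second unlabelled or the second labelled one.

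At NucPore edgeR called 0 of 10 (0.0% of genes), DESeq2 called 0, and 2 had an unadjusted p under 0.05 (1341 of 22680 genes). At MITO edgeR called 0 (1.05% of genes in either direction), with 2 unadjusted (1853 of 22680 genes) and 1 by DESeq2. In MITO total RNA it called 0 (0.63%), with 1 unadjusted (1661 of 14911 genes) and 0 by DESeq2. PDIA6 had the highest MITO value, 0.45 ± 0.16 (edgeR adjusted p = 0.306), with 624 and 808 CPM labelled against 562 and 486. The members' share of all counts was 0.251 to 0.320% in MITO labelled and 0.582 to 0.607% in MITO unlabelled libraries. In CPM scaled by TMM factors the median log2 fold change of the 10 at MITO was -0.07.

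Levels can be compared between genes only per length. Over the 18 unlabelled libraries CALR had the highest median level, 284 CPM per kilobase of annotated exons (198 to 377), followed by HSP90B1 (209), CANX (207) and HSPA5 (204). PDIA6 (121), P4HB (109), PDIA4 (104), CALU (77.0) and PDIA3 (68.8) came next, and HYOU1 was lowest (35.8, from 26.9 to 51.1). No neighbours in this order differed beyond their spread. Across the 10 members, which share the same libraries, Spearman's rho of the ERM log2 fold change was -0.24 with this level and -0.15 with coding length.

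The 5 genes whose log2 fold changes over the 9 constructs were most like the mean of the members were NID1, a basement membrane protein (Pearson r = 0.98), APP, the amyloid precursor (0.98), CERS2, a ceramide synthase (0.98), ASPH, an aspartate hydroxylase of the ER (0.97), and GANAB, a glucosidase that trims the sugars read by CANX and CALR (0.97). Each r is over 9 values, and 11829 genes were ranked. GANAB had 1.37 at ERM, 1.53 at OMM and -0.38 at NES. Of the members PDIA4 (0.95) lay nearest to their mean, which includes it, and HSP90B1 (0.72) farthest.

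Other ER folding genes were read from 7 lists with 81 genes, 80 of them tested. At ERM 25 of the 80 were called higher and 7 lower (5.26 and 7.6% of all genes), at OMM 28 and 0 (3.0 and 1.98%), at NES 0 and 9 (1.38 and 2.5%), and at KDEL 0 and 0 (0.0% in both). Their medians were 0.62, 0.94, -0.41 and -0.13. Of 12 genes of the lectin cycle 6 were higher at ERM and 0 lower, among them UGGT1, which re-glucosylates misfolded glycoproteins (2.28 ± 0.28), and EDEM3, which marks them for degradation (2.11 ± 0.29). Of 16 partners of the ER Hsp70 6 were higher and 1 lower, with DNAJC3, a J-domain protein, at 1.73 ± 0.27. Of 21 further disulfide isomerases and oxidases 5 were higher and 3 lower. TMX3, a membrane-anchored isomerase (2.00 ± 0.29), and ERO1A, which oxidises P4HB (1.57 ± 0.25), were among the higher ones. Of 8 prolyl isomerases 2 were higher and 2 lower, with FKBP14 at 2.35 ± 0.40 and PPIB at -0.77 ± 0.20.

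The relatives of the members in other compartments had other values at ERM. HSPA8, the cytosolic relative of HSPA5, was at -1.39 ± 0.19 (edgeR adjusted p = 8.71e-07) and HSPA9, the mitochondrial one, at -0.76 ± 0.15 (adjusted p = 0.00045). Of the relatives of HSP90B1, HSP90AB1 was lower (-0.64 ± 0.14), TRAP1 of the mitochondria was lower (-1.48 ± 0.19) and HSP90AA1 was not called (0.10 ± 0.16). Of 26 cytosolic chaperones tested 0 were higher and 11 lower at ERM, and of 10 mitochondrial ones 0 and 4. In the OMM against NES difference HSPA8 (-0.04 ± 0.26), HSPA9 (-0.10 ± 0.21) and TRAP1 (0.29 ± 0.26) were not called.

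OMM and NES were also compared within each drug. Whether translation holds these messages in place was not tested apart from other effects of a drug. Cycloheximide stops ribosomes on the message with the chain attached. Puromycin releases the chain, and CCCP collapses the mitochondrial membrane potential. In cycloheximide all 10 transcripts were higher at OMM, 7 were lower at NES, and all 10 differed between the places. In puromycin neither edgeR nor DESeq2 called any member different between OMM and NES. In CCCP edgeR called 0 and DESeq2 4 (its share of all genes is not given), with all 10 values above 0.

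**Figure D3:**
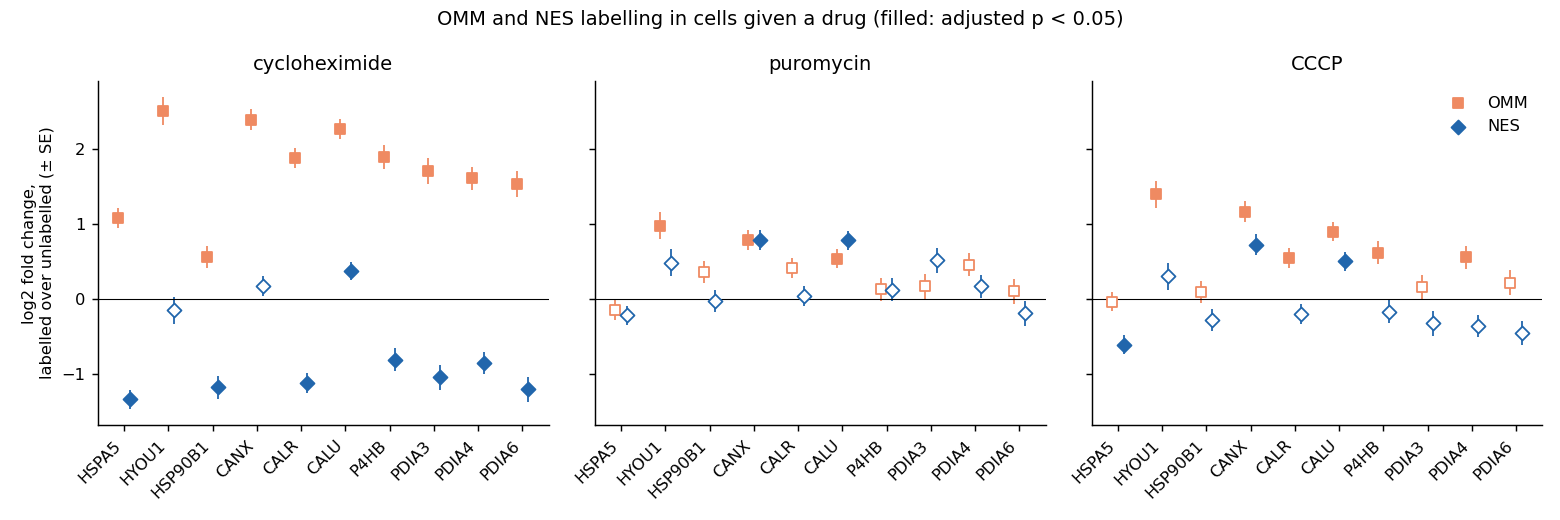
Log2 fold change of labelled over unlabelled libraries with its standard error at OMM and NES in cycloheximide, puromycin and CCCP, filled where the edgeR adjusted p is under 0.05. In cycloheximide OMM values lie between 0.56 and 2.50 and NES values between -1.34 and 0.37, and in puromycin the 2 places lie within 0.49 of each other for every transcript.

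HSPA5 had 1756 and 1927 CPM labelled against 903 and 847 unlabelled at OMM in cycloheximide, and 338 and 370 against 824 and 964 at NES. The groups were separate at both places, in opposite directions, with log2 fold changes of 1.07 ± 0.13 (edgeR adjusted p = 7.91e-06) and -1.34 ± 0.13 (adjusted p = 6.99e-07). In puromycin it had 593 and 610 against 710 and 619 at OMM, and 726 and 657 against 713 and 894 at NES. The groups overlapped at NES and lay next to each other at OMM, at -0.22 ± 0.13 and -0.14 ± 0.13, neither called.

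CALR had 2447 and 2572 CPM labelled against 603 and 767 unlabelled at OMM in cycloheximide, and 361 and 348 against 752 and 790 at NES. In puromycin it had 537 and 592 against 412 and 439 at OMM and 565 and 484 against 497 and 524 at NES. OMM was high and NES low in the first drug, and in the second the OMM labelled libraries still lay above the unlabelled ones, by less, while the NES groups overlapped. The OMM against NES difference was 2.99 ± 0.19 (edgeR adjusted p = 4.43e-09), the highest of the 10, in cycloheximide and 0.37 ± 0.19 (adjusted p = 0.59) in puromycin.

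CANX had 7383 and 8198 CPM labelled against 1357 and 1624 unlabelled at OMM in cycloheximide, and 1586 and 1219 against 1086 and 1406 at NES. In puromycin it had 1577 and 1610 against 949 and 900 at OMM and 1656 and 1753 against 933 and 1045 at NES. OMM was far above its unlabelled libraries and NES overlapped with them in cycloheximide, while in puromycin both places were above their unlabelled libraries without overlap. The puromycin difference between the places was 0.00 ± 0.19 (edgeR, not called). CALU was called higher at NES in each drug (0.37 ± 0.12 in cycloheximide, 0.78 ± 0.12 in puromycin and 0.50 ± 0.12 in CCCP), the cycloheximide value with an edgeR adjusted p of 0.0497.

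At OMM 10 of 10 were called higher in cycloheximide (12.4% of genes), from 0.56 ± 0.15 in HSP90B1 to 2.50 ± 0.19 in HYOU1, with a median of 1.79 against 0.40 over all genes. In puromycin CANX (0.79 ± 0.14), CALU (0.54 ± 0.12) and HYOU1 (0.98 ± 0.18) were higher (0.942%), and in CCCP these with CALR, PDIA4 and P4HB (3.27%). At NES 7 were lower (7.77%) and CALU higher (7.91%) in cycloheximide. CANX and CALU were higher there in puromycin (3.24%) and in CCCP (3.28%), where HSPA5 was lower (-0.61 ± 0.13; 5.08%). The OMM puromycin count was 1 without either unlabelled library or the second labelled one, and the OMM CCCP count 3 without the second unlabelled or the first labelled one.

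OMM against NES was called for 10 of 10 in cycloheximide (9.38% of genes), from 1.74 ± 0.21 in HSP90B1 upward. In puromycin edgeR called 0 of 10 (0.112% of genes in either direction) and DESeq2 0. Unadjusted, 0 members and 1861 of 21441 genes had an edgeR p under 0.05, with members' values from -0.34 to 0.49. In CCCP edgeR called 0 of 10 (0.00933%), but 8 had an unadjusted p under 0.05 (1648 of 21441 genes). DESeq2 called 4 there, with its share of all genes not given, and members' values ran from 0.37 to 1.09.

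At OMM cycloheximide exceeded puromycin for 9 of 10 (4.53% of genes), from 1.15 ± 0.21 in PDIA4 to 1.76 ± 0.22 in P4HB, and HSP90B1 (0.20 ± 0.21, edgeR adjusted p = 0.693) was not called. At NES cycloheximide was below puromycin for PDIA3 (-1.55 ± 0.24), CALR (-1.16 ± 0.19), HSP90B1 (-1.14 ± 0.21) and HSPA5 (-1.12 ± 0.18), where 0.131% of genes were. That count of 4 was 0 without the second labelled cycloheximide or the first labelled puromycin library, 2 without the second labelled puromycin library and 7 without the second unlabelled cycloheximide library. The change of the OMM-NES gap from puromycin to cycloheximide, a comparison added after the data had been seen, was called for 10 of 10 (3.61% of genes), from 1.34 ± 0.29 in HSP90B1 to 3.09 ± 0.34 in PDIA3. These comparisons share the cycloheximide and puromycin libraries. CCCP against puromycin gave 0 of 10 at OMM and at NES by edgeR (0.0% of genes in both) and by DESeq2. At an unadjusted p under 0.05 there were 1 and 3 (1658 and 1423 of 21441 genes).

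Without labelling, CALU (0.78 ± 0.09), CALR (0.64 ± 0.09), CANX (0.51 ± 0.10) and HSP90B1 (0.48 ± 0.10) were higher in cycloheximide than in puromycin over OMM and NES together, 4 of 10 where 3.08% of genes were. HYOU1 (-0.01 ± 0.13) and P4HB (-0.09 ± 0.11) were not called. CCCP against puromycin gave 0 of 10 by edgeR (0.07% of genes in either direction) and 1 by DESeq2. An unadjusted p under 0.05 was found for 4 members and 2807 of 21441 genes. The unlabelled OMM cycloheximide libraries lacked 3.08 and 7.75% of the well-expressed genes, and 5 members were called without the libraries lacking more than 2%. With a replicate block 2 were called, CALU and CALR, and with only the libraries compared 0.

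Untreated OMM and NES libraries lie in another table, so drug and set of libraries cannot be told apart. With that limit, OMM cycloheximide was above untreated for CANX (0.70 ± 0.18), CALR (0.71 ± 0.19) and PDIA6 (0.89 ± 0.22; 1.73% of genes). OMM puromycin was below it for CANX (-0.86 ± 0.19), P4HB (-1.27 ± 0.21) and CALU (-1.23 ± 0.20; 0.24%). NES puromycin was above untreated for HSP90B1 (1.05 ± 0.21), CANX (1.25 ± 0.19), PDIA3 (1.54 ± 0.24) and CALU (1.18 ± 0.20; 0.0634%), and NES CCCP for CANX (1.17 ± 0.19; 0.0272%). OMM CCCP and NES cycloheximide gave 0 of 10 each by edgeR (0.14 and 0.956% of genes in either direction) and 3 each by DESeq2. The share of all genes called by DESeq2 is not given for either. At an unadjusted p under 0.05 there were 6 and 4 (2089 and 2695 of 22078 genes). The OMM cycloheximide count fell to 0 without either untreated labelled library or the second labelled cycloheximide one, the NES puromycin count to 0 without either untreated labelled library, and the NES CCCP count to 0 without the first untreated labelled, the first untreated unlabelled or the second labelled CCCP library.

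Of the 80 other ER folding genes OMM against NES called 52 higher and 0 lower in cycloheximide (9.38 and 4.16% of all genes), 0 and 0 in puromycin (0.0979 and 0.014%), and 1 and 0 in CCCP (0.00933 and 0.0%). Of 11 collagen enzymes 10 were higher in cycloheximide, among them the lysyl hydroxylase PLOD1 (3.69 ± 0.44) and the prolyl hydroxylase P3H1 (3.19 ± 0.40). The lectin-cycle glucosidase GANAB was at 2.96 ± 0.23. Of 10 mitochondrial chaperones 6 were higher as well, with TRAP1 at 3.92 ± 0.22 and HSPA9 at 2.81 ± 0.23. The cytosolic HSPA8 was not called. Of 27 cytosolic chaperones 4 were higher and 2 lower.

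Nocodazole takes microtubules apart. All 10 transcripts were higher at OMM than at NES at 3 and 6 min, by 1.5 to 2.50 on the log2 scale. At 2 h the values ran from 0.46 in HYOU1 to 1.84 in CALU, and 6 were called. Over all genes the median of this difference was 0.49 at 3 min, 0.44 at 6 min and 0.16 at 2 h. The change from 3 min to 2 h was below 0 in all 10 transcripts. EdgeR called it for 0 and DESeq2 for 8, the latter without a share of all genes to set it against.

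**Figure D4:**
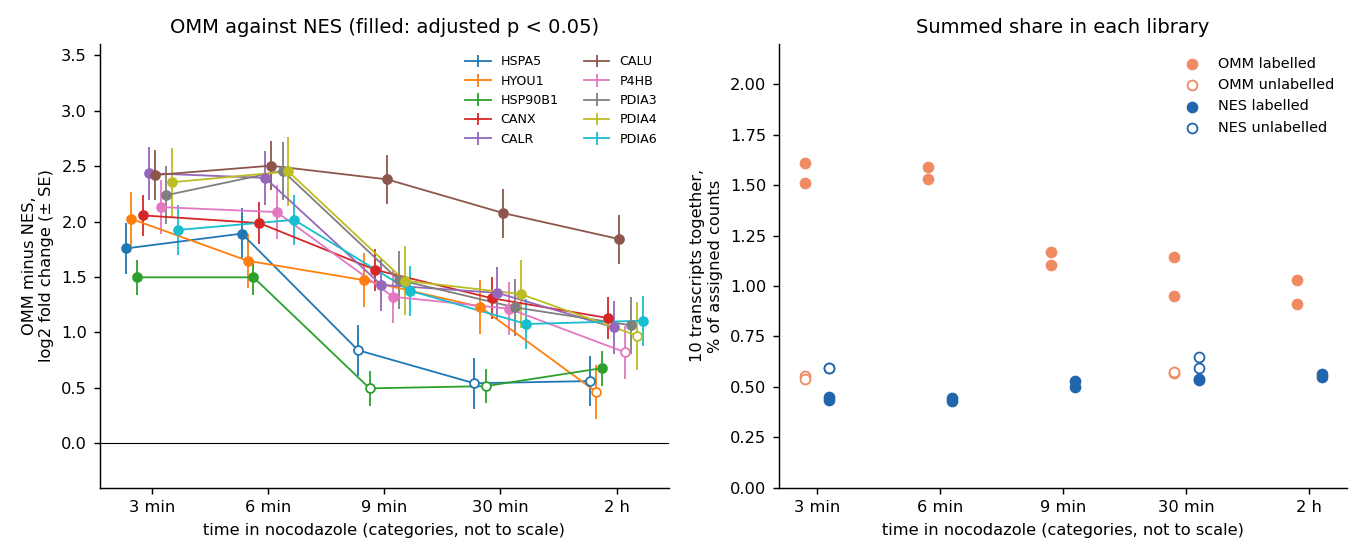
Left, the OMM against NES log2 difference with its standard error at each time in nocodazole, filled where the edgeR adjusted p is under 0.05, and right, the summed share of the 10 transcripts in the counts of each library, both with times as categories and not to scale. The OMM labelled share is 1.51 to 1.61% at 3 and 6 min and 0.909 to 1.17% later, and NES labelled libraries hold 0.432 to 0.563%.

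HSPA5 had 1333 and 1413 CPM in the OMM labelled libraries at 3 min, 1382 and 1368 at 6 min, 1002 and 1028 at 9 min, 785 and 1003 at 30 min and 881 and 870 at 2 h. In the NES ones it had 384 and 398, 356 and 358, 480 and 612, 581 and 602, and 587 and 555. OMM libraries of 3 and 6 min lay above all later ones, and NES libraries of 3 and 6 min below all later ones. The OMM against NES difference was 1.76 ± 0.23 at 3 min, 1.89 ± 0.23 at 6 min, 0.84 ± 0.23 at 9 min, 0.54 ± 0.23 at 30 min and 0.56 ± 0.23 at 2 h, the last 3 not called by edgeR.

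HYOU1 had 1256 and 1283 CPM in the OMM labelled libraries at 3 min, 1148 and 1159 at 6 min, 784 and 685 at 9 min, 630 and 811 at 30 min and 521 and 555 at 2 h. At NES it had 316 and 288 at 3 min and 413 and 341 at 2 h. The 2 h OMM libraries were the lowest of all times, without overlap. The difference was 2.02 ± 0.25 (edgeR adjusted p = 2.54e-05) at 3 min and 0.46 ± 0.24 (adjusted p = 0.507) at 2 h.

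CALU had 805 and 1106 CPM in the OMM labelled libraries at 3 min, 979 and 950 at 6 min, 1124 and 927 at 9 min, 820 and 1067 at 30 min and 808 and 788 at 2 h. At NES it had 312 and 361 at 3 min and 389 and 450 at 2 h. Its OMM libraries of 2 h overlapped those of 3 min. The difference was 2.42 ± 0.22 (edgeR adjusted p = 7.19e-07) at 3 min and 1.84 ± 0.22 (adjusted p = 7.13e-05) at 2 h.

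OMM against NES was called for 10 of 10 at 3 min (2.05% of genes) and at 6 min (1.91%), 8 at 9 min (1.18%) and at 30 min (1.09%), and 6 at 2 h (0.959%). HSPA5 and HSP90B1 were not called at 9 and 30 min, and at 2 h HSPA5, HYOU1, P4HB and PDIA4 were not. The 9 min count was 5 without the first labelled NES library. The 30 min count was 2 without the first labelled NES or the second labelled OMM library and 3 without the second labelled NES one. The 2 h count was 1 without the first labelled NES or OMM library and 3 without the second labelled NES one, and with labelled libraries alone it was 3. The times share their unlabelled libraries. The first OMM labelled library of 2 h lacked 4.58% of the well-expressed genes.

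From 3 min to 2 h the difference was below 0 in all 10, from -0.58 ± 0.25 in CALU to -1.56 ± 0.28 in HYOU1, with a median of -1.18 against -0.12 over all genes. EdgeR called 0 of 10 (0.0204% of genes in either direction), with HYOU1 at an adjusted p of 0.0564. At an unadjusted p under 0.05 there were 10 (1035 of 19611 genes). DESeq2 called 8, and the share of all genes it called is not given. The unlabelled libraries cancel in this change.

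Against their unlabelled libraries 10, 9, 8, 7 and 5 members were called higher at OMM at 3, 6, 9 and 30 min and 2 h, where 11.0, 12.2, 11.0, 10.2 and 9.78% of genes were. At 3 min their median was 1.62, and that of all genes 0.70. The 4 unlabelled OMM libraries lacked 2.98 to 16.3% of the well-expressed genes, and with unlabelled NES libraries in their place the counts were 9, 9, 4, 3 and 3. The 9 min count was 5 without either labelled library, the 30 min count 4 without the first and 3 without the second, and the 2 h count 3 without the first. At NES 5, 6, 2, 4 and 2 members were called lower, where 2.14, 2.38, 0.826, 1.4 and 1.81% of genes were. HSP90B1 and PDIA6 were lower at every time, HSP90B1 from -1.24 to -0.48 and PDIA6 from -1.01 to -0.80. Leaving out single libraries moved these NES counts between 2 and 7 at 3 min, 3 and 7 at 6 min, 0 and 5 at 9 min, 0 and 5 at 30 min, and 1 and 4 at 2 h. The lowest came without the second labelled library at 3 min, either labelled library at 6 min, 30 min and 2 h, and the first at 9 min. At 6 min it came also without the second unlabelled library of 30 min.

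Between 3 and 30 min the unlabelled libraries differed in CALU (0.45 ± 0.13, edgeR adjusted p = 0.0485; 2.64% of genes were higher at 30 min). The call was lost without the second unlabelled NES library of either time, and 3 were called without the first unlabelled NES library of 30 min and 4 without the first unlabelled OMM library of 3 min. Of the 80 other ER folding genes 18 were higher at OMM than at NES at 3 min and 5 at 2 h (2.05 and 0.959% of all genes), with medians of 1.27 and 0.73.

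All 10 transcripts were 2.03 to 4.49 times as high in the nuclear as in the cytosol fraction. The outer nuclear membrane is continuous with the ER. How much ER membrane the nuclear fraction held was not measured here, and the cause of these levels was not tested.

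**Figure D5:**
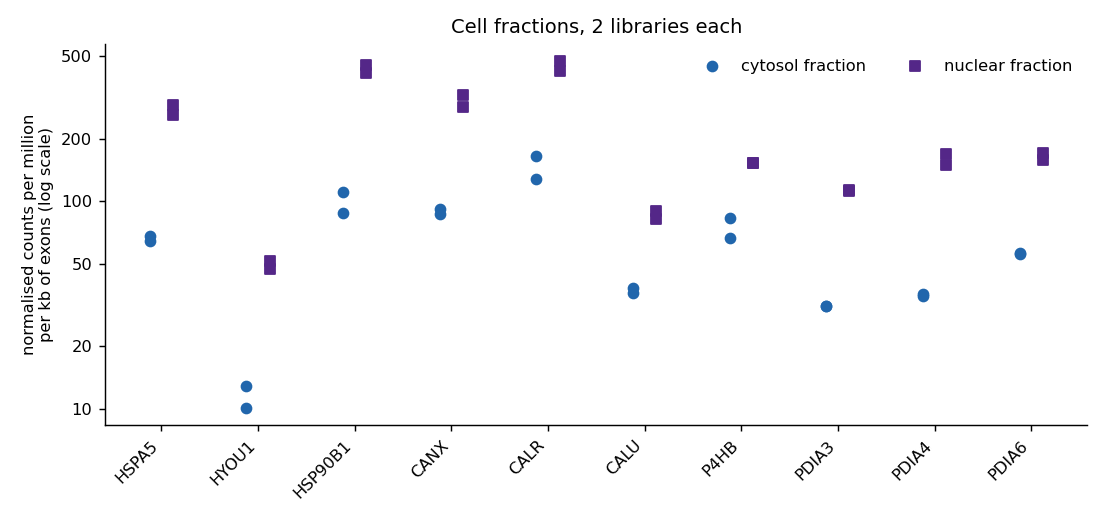
CPM per kilobase of annotated exons (log axis) of each transcript in the 2 cytosol and 2 nuclear fraction libraries. Every nuclear point lies above both cytosol points of its gene, for example 152 against 66.8 and 83.0 for P4HB, and 46.9 and 51.5 against 10.1 and 12.9 for HYOU1.

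HSPA5 had 252 and 267 CPM in the cytosol and 1138 and 1016 in the nuclear fraction, PDIA4 had 115 and 117 against 551 and 489, and P4HB 354 and 440 against 808 and 806. No member overlapped between the fractions, and the share of all genes without overlap was not worked out. The log2 fold change was 2.05 ± 0.17 (edgeR adjusted p = 2.65e-06) in HSPA5, 2.17 ± 0.17 in PDIA4, the highest, and 1.02 ± 0.17 in P4HB, the lowest. CANX (1.77 ± 0.17), CALU (1.20 ± 0.16) and HYOU1 (2.10 ± 0.18), highest at ERM, were spread over this range. All 10 were called higher where 34.2% of genes were, with a median of 1.81 against 0.11. Together they made up 1.12 to 1.17% of counts in the nuclear and 0.230 to 0.234% in the cytosol fraction.

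HSP90AA1 (-0.71 ± 0.18), HSP90AB1 (-0.56 ± 0.17), HSPA9 (-0.55 ± 0.17) and TRAP1 (-0.67 ± 0.16) were lower in the nuclear fraction, and HSPA8 (-0.10 ± 0.18) was not called. Over all genes 34.2% were higher and 27.8% lower there. Of 27 cytosolic chaperones 0 were higher and 23 lower, of 10 mitochondrial ones 0 and 8, and of the 80 other ER folding genes 56 and 2. The nuclear RNA MALAT1 was at 4.52 ± 0.20, and ER and nuclear transcripts were high in the same fraction. With NLS labelling, as given above, 6 of the 10 were lower.

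Several members are classical targets of the unfolded protein response, so their promoters were read for the ER stress response element, CCAAT and CCACG with 9 bases of any kind between them, on both strands. Windows from 250 bases before to 50 after the gene start came from RefSeq (GRCh38.p14), which matched 9 of the 10 members, PDIA3 not among them. RefSeq lists several starts for some genes, and its starts differ from those of the GENCODE spans given above: the CANX, PDIA6 and HSP90B1 sites lie inside those spans. The element was in 5 of these 9, and in 25 of 27305 genes (0.0916%) and 27 of 35116 windows (0.0769%). Sites are shown because they are shared by members of different families. Fixed letters are in capitals, and each site is read along the strand on which it matches.
HSPA5 (chr9:125241391-125241409, same strand as the gene): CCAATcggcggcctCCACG
HSP90B1 (chr12:103930216-103930234, same strand as the gene): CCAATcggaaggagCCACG
HSP90B1 (chr12:103930321-103930339, opposite strand): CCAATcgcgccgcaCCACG
CANX (chr5:179698778-179698796, same strand as the gene): CCAATcttcacactCCACG
CALR (chr19:12938384-12938402, opposite strand): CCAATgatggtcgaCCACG
PDIA6 (chr2:10812853-10812871, same strand as the gene): CCAATgagccgcagCCACG

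A match describes letters and not binding. HSP90B1 has a site on each strand, and the HSPA5 site starts 66 bases before the RefSeq gene start. Of the 5 genes with a site, HSP90B1, CANX and CALR were higher in unlabelled cycloheximide than puromycin libraries by edgeR, of which CALR alone was called with a replicate block and none with only the libraries compared, while HSPA5 (0.28 ± 0.09, edgeR adjusted p = 0.0698) and PDIA6 (0.27 ± 0.12, adjusted p = 0.173) were not called. CALU, higher there, had no match in its window. Of the other ER folding genes CRELD2 and ERO1B hold a match.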

How the data were processed

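Per the labels' protocols, labelled and unlabelled HEK293T cells gave RNA for APEX-seq libraries, polyadenylated except for MITO total RNA. The authors' deposited tables hold raw counts per Ensembl gene. Trimmomatic, STAR, HTSeq and GRCh38 are named in the submitters' processing notes without versions, and the strand setting of the counting is not given in the sources used here. The authors' deposited table of log2 fold changes and p-values was used only where named.

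The 10 members and all gene lists were chosen with earlier results of these data known. Each count table was fitted whole in edgeR 4.0.16 (R 4.3.3; filterByExpr, TMM, quasi-likelihood F test, 1 mean per group), with Benjamini-Hochberg adjustment over all genes and calls at an adjusted p under 0.05. A difference between constructs or drugs is a contrast of 2 labelled over unlabelled contrasts. SE is the log2 fold change over the root of F. The technical repeat of 1 MITO library was not used. The fitting scripts were tested on simulated data. Genes named are the members, the 5 most like them, up to 4 per list with the smallest p, relatives in other compartments and landmarks. Alternatives were DESeq2 1.42.0, other size factors, no filter, other controls, other sets of libraries, a replicate block and each library left out. Promoters and start codons came from RefSeq and GENCODE 29.

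The replicate numbers were not taken to pair libraries: over 21 pairs of groups the correlation of replicate differences ran from -0.17 to 0.15.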

Additional observations from a re-analysis of the deposited data

Results flagged for a closer look

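Each result here is a tested difference between 2 effects, given as the number of the 10 transcripts for which edgeR called it at an adjusted p under 0.05. The labelled over unlabelled contrast differed between ERM and NES for 9 and between OMM and NES for 10. In cycloheximide it differed between OMM and NES for 10. Between cycloheximide and puromycin it differed for 9 at OMM and for 4 at NES, and the gap between OMM and NES differed for 10. Against untreated cells, which lie in another table, it differed for 3 at OMM in cycloheximide and 3 at OMM in puromycin, and for 4 at NES in puromycin and 1 at NES in CCCP. In nocodazole OMM and NES differed for 10 at 3 min, 10 at 6 min, 8 at 9 min, 8 at 30 min and 6 at 2 h.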

How the results depend on the processing

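Counts are of called members. The share of all genes called under the same setting is not given beside them. They show how a count moves with the processing and not how it compares with all genes. Totals over all genes follow for some comparisons only. Leaving out 1 library kept 294 of 364 counts within 1.5 times, and the other settings 310 of 402. For single members 3325 of 3640 and 3177 of 3490 results kept their call, and 0 that were called in either fit reversed direction. Changes of direction in results called in neither fit were not counted. Leaving out 1 library gave 4 at ERM, 5 to 7 at OMM, 1 to 4 at NES and 1 to 4 at NLS. It gave 0 to 2 at NIK, 1 to 2 at LMA, 1 to 2 at OMM in puromycin and 3 to 5 in CCCP. It gave 0 to 7 for NES cycloheximide against puromycin. Against untreated it gave 0 to 4 for OMM cycloheximide, 0 to 1 for OMM CCCP, 0 to 3 for NES cycloheximide, 0 to 5 for NES puromycin and 0 to 3 for NES CCCP. In nocodazole it gave 5 to 8, 3 to 7 and 3 to 5 at OMM at 9 and 30 min and 2 h, 2 to 7, 3 to 7, 0 to 5, 0 to 5 and 1 to 4 at NES over the 5 times, 5 to 9, 2 to 9 and 1 to 8 for OMM against NES at 9 and 30 min and 2 h, and 0 to 4 for unlabelled 30 against 3 min. With a log2 change of at least 1 as well, counts were 3 at ERM, 5 at OMM, 0 at NLS, NIK and LMA, 0 at OMM in puromycin, 2 in CCCP, 5 at NES in cycloheximide, 0 in puromycin and CCCP, and 0 for unlabelled cycloheximide against puromycin, OMM cycloheximide against untreated and unlabelled 30 against 3 min. In nocodazole they were 3, 3 and 2 at OMM at 9 and 30 min and 2 h, and 2, 3, 0, 0 and 0 at NES. With only the libraries compared, counts were 5 at OMM, 0 at NES and NIK, 3 at OMM in CCCP, 5 at NES in cycloheximide, and 0 for NES cycloheximide against puromycin, unlabelled cycloheximide against puromycin, and OMM cycloheximide, NES puromycin and NES CCCP against untreated. In nocodazole they were 2, 1 and 2 at OMM at 9 and 30 min and 2 h, 0 at NES at every time, 2, 1 and 0 for OMM against NES at 9 and 30 min and 2 h, and 0 for unlabelled 30 against 3 min. With 18 unlabelled libraries as controls counts were 9 at ERM, 6 at NIK, 10 at LMA, 3 at NucPore and 1 at MITO. DESeq2 called 1 at MITO, 1 for ERM against OMM, 4 for OMM against NES in CCCP, 7 for NES cycloheximide against puromycin and 1 for unlabelled CCCP against puromycin. Against untreated it called 6, 5 and 3 at OMM in cycloheximide, puromycin and CCCP, and 3 and 3 at NES in cycloheximide and CCCP. It called 8 for 2 h against 3 min and 2 for unlabelled 30 against 3 min. Without a filter there were 1 for OMM against NES in CCCP, 7 for NES cycloheximide against puromycin, 2 for NES CCCP against untreated, 6 and 6 at NES at 9 min and 2 h, 7 for 2 h against 3 min and 3 for unlabelled 30 against 3 min. RLE size factors gave 1 and 0 for the last 2. Without libraries lacking over 2% of well-expressed genes there were 5 for OMM cycloheximide and 1 for NES puromycin against untreated, 3 at OMM at 2 h, 1 and 2 at NES at 9 and 30 min, 2 for OMM against NES at 2 h and 0 for unlabelled 30 against 3 min. With unlabelled libraries of 3 min only there were 5 at OMM at 9 min, 3, 3, 0 and 1 at NES from 3 to 30 min and 5 for OMM against NES at 30 min, and of 30 min only 3 and 2 at OMM at 30 min and 2 h and 3 for OMM against NES at 2 h. Chosen after seeing the data, unlabelled NES controls gave 4, 3 and 3 at OMM at 9 and 30 min and 2 h, and labelled libraries alone 3 for OMM against NES at 2 h. The cause of these changes was not tested.

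A replicate block gave 2 for unlabelled cycloheximide against puromycin, 1 for OMM cycloheximide against untreated and 0 for unlabelled 30 against 3 min, and moved no other count by over 1.5 times. Crossing the MITO numbers, added after seeing the data, gave 0 called members under the block. Over all genes DESeq2 called 4567 at ERM against 2917 reported, 1965 against 1131 at OMM, 1814 against 880 at NES and 6425 against 3800 at OMM in cycloheximide. With only the libraries compared 1857, 463 and 0 genes were called at ERM, OMM and NES. With 2 libraries a group, 1 library can decide a call.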
